A study of Mus musculus with 28 samples.

Results

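The genes described here are 36 genes of the interferon response and of nucleic acid sensing, listed by symbol and matched to the deposited gene counts through Ensembl identifiers. All 36 were found among the 37991 gene models. Of these, 35 had at least 16 reads over the 16 RNA-seq libraries and were tested, and Ifit3, with 2 reads in all, was not. The question put to them was whether the release of retroelements on loss of KAP1 is accompanied by a viral-mimicry response, that is, by activation of antiviral genes, in mouse embryonic stem cells (mESCs).

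Cells recognise foreign or misplaced nucleic acids through sensors. RIG-I (Ddx58), MDA5 (Ifih1) and TLR3 bind double-stranded RNA, cGAS (Mb21d1) binds double-stranded DNA, and ZBP1 binds nucleic acids in the Z conformation. The signals of RIG-I, MDA5 and cGAS pass through MAVS or STING (Tmem173) to the transcription factors IRF3 and IRF7, which turn on interferon genes. Secreted interferon then acts through receptors, STAT2 and IRF9 on interferon-stimulated genes such as Isg15, Ifit1, the Oas family and the Mx genes, whose products block viral replication. Pluripotent cells are known for a weak response of this kind.

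The study used naive mESCs, labelled as the J1 line of strain 129S4/SvJae, grown in N2B27 medium with LIF and the 2i inhibitors (1 µM PD0325901 against MEK and 3 µM CHIR99021 against GSK3). The genotypes were wild type (WT), DNMT TKO, which lacks Dnmt1, Dnmt3a and Dnmt3b, and TET TKO, which lacks Tet1, Tet2 and Tet3. Each received a lentiviral vector with puromycin resistance, either empty (shEmpty) or with a hairpin against Kap1 (shKap1), was kept in puromycin at 4 µg/mL and was harvested on day 5. There were 3 libraries per hairpin in WT and in DNMT TKO and 2 in TET TKO, from independent experiments. Each genotype is a single line, and the TKO lines came from different laboratories, so genotype and line cannot be told apart. All cells carried a vector and had been under puromycin. The paper reports that the knockdown quickly stopped proliferation and that many cells died, with an onset before the day of harvest. The part of this arrest and death in the differences between shKap1 and shEmpty libraries was not tested.

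Reads assigned to genes ran from 18108431 to 29373696 per library. The knocked-down gene, Trim28 (which encodes KAP1), fell, with log2 changes of -3.41 in WT, -2.13 in DNMT TKO and -3.47 in TET TKO, and the loss in DNMT TKO differed from that in WT by 1.28 (adjusted p = 0.0008). In shEmpty cells Dnmt1, Dnmt3a and Dnmt3b were lower in DNMT TKO than in WT (log2 -1.65, -3.04 and -2.64), and Tet1 and Tet2 were lower in TET TKO (-1.49 and -2.16), while Tet3 stood at a log2 difference of -0.03. All 10 markers of pluripotent cells exceeded 1 RPKM in every group, with a summed level of 1763 to 3401 RPKM that was lower with shKap1 in every genotype. Of 10 markers of macrophages and other blood cells 6 could be tested, and their sum ran from 87.6 to 95.1 RPKM in WT shEmpty and from 25.5 to 38.5 in WT shKap1, mostly from Laptm5 and Cd68. It went from 45.8 to 50.2 down to 26.1 to 29.9 RPKM in DNMT TKO and from 83.7 to 86.3 down to 28.0 to 29.6 in TET TKO, while Itgam of the same list rose in each knockdown (log2 1.45, 1.64 and 1.49) to a mean of at most 0.794 RPKM. Ptprc, Adgre1, Lyz2 and Tyrobp had too few reads to be tested. The sum of 10 fibroblast markers was low, at 1.20 to 1.38 RPKM with shEmpty and 1.58 to 2.48 with shKap1 in WT, 2.44 to 3.44 and 3.84 to 4.37 in DNMT TKO and 3.09 to 3.23 and 2.48 to 2.67 in TET TKO. It was thus higher with shKap1 in WT and DNMT TKO and lower in TET TKO, without overlap. Its genes did not move together. Of the 8 tested, 5, 6 and 2 had a positive log2 value in WT, DNMT TKO and TET TKO, and 3, 2 and 5 a negative one. In WT the values ran from -3.09 to 3.31. No more than 1 of the 10 genes exceeded a mean of 1 RPKM in any group. The part of these shifts in the results below was not tested, and in bulk RNA fewer cells with a transcript and less transcript per cell cannot be told apart.

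Many interferon-stimulated genes carry a binding site for STAT2 and IRF9 or for other IRF proteins near the start of transcription. RefSeq promoters (GRCm38.p6, 250 bases before to 50 after the start) were found for 28 of the 36 genes. The core of such sites, GAAA followed by any 2 bases and GAAA again, was searched on both strands and was present in 13 of the 28 (46.4%), against 3.99% of the 27025 genes with a promoter. A longer form with CT after the second GAAA, whose matches are a subset of the former, was present in 6 (21.4%, against 0.303%), and TTCNNNGAA, which reads the same on both strands, in 8 (28.6%, against 9.55%). The windows below are shown because they belong to the gene with the largest rise among the effectors, the ubiquitin-like modifier, the sensor MDA5, the gene that fell in every genotype and the most abundant gene that rose. The first, Ifit1, ranks so in DNMT TKO, on 2 reads with shEmpty against 50 with shKap1. It passed the filter on reads through the shKap1 libraries. Each RefSeq window occurred 1 time in mm9, the build of the files, and is written 5′ to 3′ on the strand of the gene, with matches to the core or its reverse complement in capitals.
Ifit1, chr19:34715255-34715323, plus strand: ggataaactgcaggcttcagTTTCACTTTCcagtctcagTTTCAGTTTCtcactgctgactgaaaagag
Isg15, chr4:155574964-155575025, minus strand: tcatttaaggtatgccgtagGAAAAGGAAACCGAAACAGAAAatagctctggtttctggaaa
Ifih1, chr2:62484263-62484290, minus strand: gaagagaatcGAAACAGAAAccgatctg
Oas1a, chr5:121357519-121357574, minus strand: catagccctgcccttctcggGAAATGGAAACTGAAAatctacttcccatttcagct
Ifitm3, chr7:148196614-148196642, minus strand: gGAAAAGGAAActtctgaGAAACCGAAAc
Relative to the RefSeq start, the 2 matches of Ifit1 began at -104 and -85, the 3 overlapping matches of Isg15 between -78 and -66 and the overlapping matches of Oas1a at -20 and -14. Those of Ifitm3 (2 and 19) and Ifih1 (32) lay after the start. A match is a description of the letters and does not show that a factor binds there. The same letters thus stood at genes that rose (Ifit1, Isg15, Ifih1 and Ifitm3) and at Oas1a and Oas3, which fell. They also stood at Bst2, Ddx58, Eif2ak2, Ifitm2, Rsad2 and Stat2, which were called in no knockdown, and at Ifit3, which was not tested. For the other genes that rose (Irf7, Oas2, Oasl2, Mx1, Mx2, Tlr3, Zbp1 and Usp18) there was no match or no promoter was found. The same holds for Oasl1 and Xaf1, which fell.

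The genes spanned a wide range of levels, given here as RPKM so that genes can be compared. RPKM is reads per kilobase of exon, scaled to the reads assigned to genes in each library after adjustment by the TMM factor of edgeR. Mean RPKM exceeded 1 in all 6 groups for 17 of the 36 genes, in some groups for 7 (Isg15, Oas2, Oasl1, Oasl2, Parp14, Xaf1 and Zbp1) and in no group for 12 (Dhx58, Ifih1, Ifit1, Ifit2, Ifit3, Irf7, Mx1, Mx2, Oas3, Rsad2, Tlr3 and Usp18). By the median over the 16 libraries the order began with the membrane proteins Ifitm2 (250 RPKM, with a range of 145 to 337) and Ifitm3 (146, with a range of 108 to 300), whose ranges overlapped. Bst2, or tetherin, which holds budding virions at the cell surface, followed at 75.1 RPKM, then Ifitm1 at 53.3 and the RIG-I ubiquitin ligase Trim25 at 45.1, and these 3 also overlapped. Mavs (16.4), Stat2 (14.5), Oas1a (13.3), the RNA editing enzyme Adar (13.1) and Irf3 (11.7) came next. At the other end stood Irf7 (0.0216), Usp18 (0.0209), Ifit1 (0.0183) and Ifit3 (0). The naive cells thus transcribed the sensors Ddx58 and Mb21d1, the adaptors Mavs and Tmem173 and the factors Irf3, Irf9 and Stat2 in every group. In contrast, the sensor Ifih1 had 0 to 9 reads and the factor Irf7 0 to 3 reads in the shEmpty libraries.

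**Figure D1:**
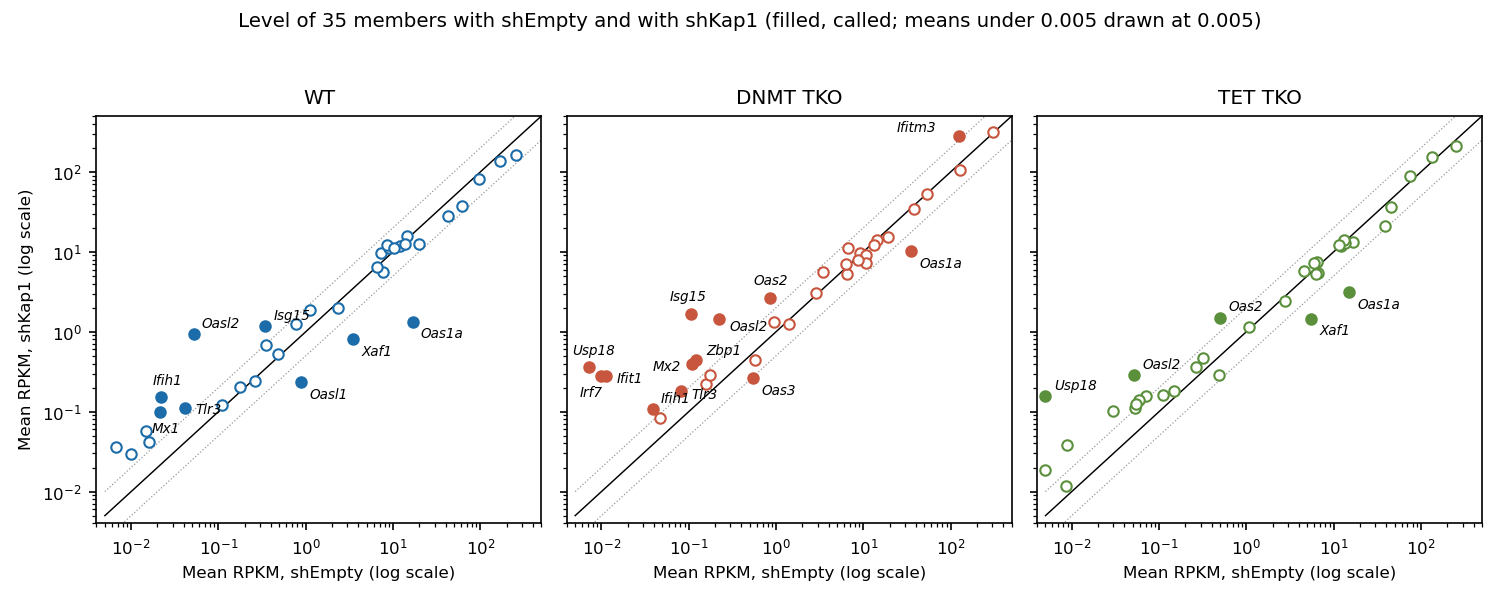
Mean RPKM of the 35 tested genes with shEmpty (horizontal axis, log scale) and shKap1 (vertical axis, log scale) in each genotype. Filled points passed the test, the solid line marks equal levels and the dotted lines mark 2-fold differences. The called rises lie mostly below 1 RPKM in shEmpty cells, with Ifitm3 in DNMT TKO as the exception, and Oas1a lies below the lines in every genotype.

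On Kap1 knockdown the genes did not move as a block. A gene was called when the adjusted p in edgeR was below 0.05 and the change was at least 2-fold. In WT 5 of the 35 rose (14.3%, against 10.8% of all 20321 genes tested) and 3 fell (8.57%, against 6.54%). In DNMT TKO 11 rose (31.4%, against 10.1%) and 2 fell (5.71%, against 2.41%). In TET TKO 3 rose (8.57%, against 8.05%) and 2 fell (5.71%, against 4.46%). Ifit1, Irf7 and Usp18 had 5, 9 and 2 reads in the 8 shEmpty libraries together and 59, 78 and 59 in the shKap1 libraries, so that they passed the filter of 16 reads through the group where they were high. Over genes with at least 16 reads in the shEmpty libraries, 5 of 32 rose in WT (15.6%, against 9.25% of all genes), 8 in DNMT TKO (25%, against 8.23%) and 2 in TET TKO (6.25%, against 6.6%). The median log2 change was 0.12 in WT, 0.15 in DNMT TKO and 0.23 in TET TKO, against -0.01, 0.02 and -0.01 for all genes. With the 2 genes of TET TKO that had no read in shEmpty set to their bound, the last median was 0.21. In all, 16 genes were called in at least 1 knockdown (45.7%, against 25.6% of all genes) and 19 in none. Of the 16, Oasl2 rose in all 3 and Oas1a fell in all 3, each 2.86% of the 35, against 3.95% and 0.901% of all genes. Estimates were positive in all 3 knockdowns for 16 genes and negative in all 3 for 7, but 18 of the 79 estimates that were not called changed sign when 1 library was left out.

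**Figure D2:**
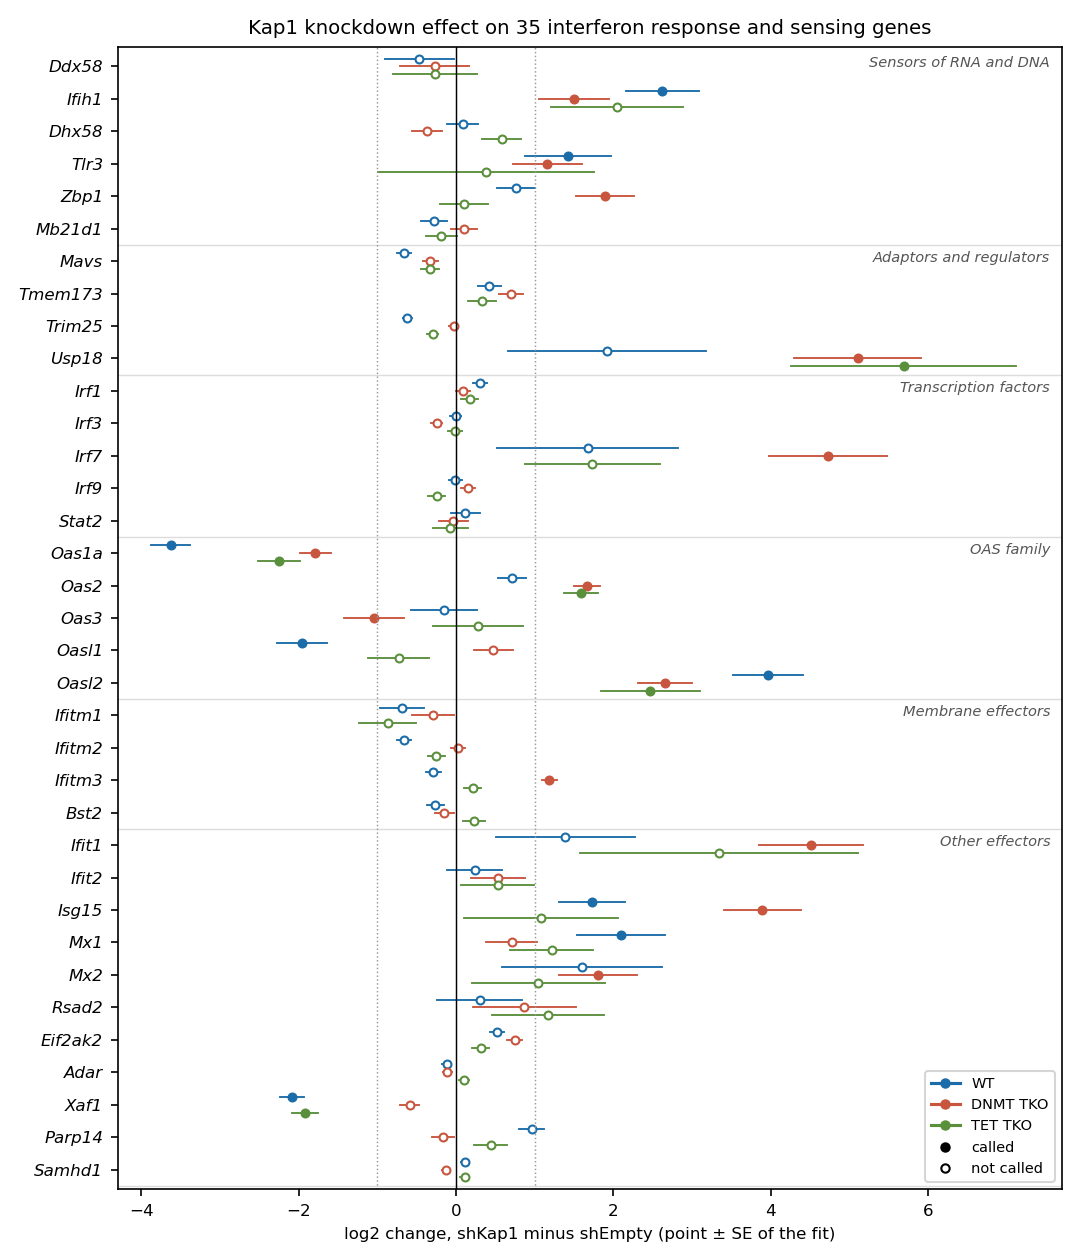
Log2 change on Kap1 knockdown (horizontal axis, point with the SE of the fit) for each tested gene, grouped by role, in WT (blue), DNMT TKO (red) and TET TKO (green). Filled points were called, and the dotted lines mark 2-fold changes. Long bars belong to genes with few reads, and the falls of Oas1a, Oasl1 and Xaf1 stand opposite the rises of Oas2, Oasl2 and Isg15.

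Among the sensors, Ifih1 and Tlr3 rose in WT and DNMT TKO and Zbp1 in DNMT TKO, all from low levels. Ifih1, the sensor of long double-stranded RNA, had 0, 6 and 9 reads in the WT shEmpty libraries and 13, 32 and 31 with shKap1, a log2 change of 2.62 (SE 0.47, adjusted p = 0.00016). In DNMT TKO it had 7, 7 and 9 reads with shEmpty and 21, 17 and 23 with shKap1 (log2 1.498, SE 0.45, adjusted p = 0.014), and the call was lost without shEmpty replicate 2. In TET TKO the reads were 2 and 2 against 7 and 6, a log2 value of 2.04 that did not pass (adjusted p = 0.077). Every shKap1 library thus lay above every shEmpty library in each genotype. The highest level, in WT shKap1, was 0.202 RPKM.

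Tlr3, the endosomal receptor for double-stranded RNA, had 4, 5 and 4 reads in WT shEmpty and 13, 6 and 10 in WT shKap1 (log2 1.43, SE 0.55, adjusted p = 0.041). In DNMT TKO the reads were 9, 7 and 10 against 18, 21 and 15 (log2 1.16, SE 0.44, adjusted p = 0.049). Neither call was stable, being lost in 4 of 6 and 5 of 6 fits that left out a library (adjusted p up to 0.1535 and 0.1824) and with DESeq2 and limma-voom. In TET TKO the reads were 0 and 2 with each hairpin.

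Zbp1, which can start necroptosis, had 9, 7 and 15 reads in DNMT TKO shEmpty and 51, 23 and 33 with shKap1 (log2 1.89, SE 0.37, adjusted p = 0.00063). In WT its level was 0.976, 1.18 and 1.17 RPKM with shEmpty and 2.39, 1.71 and 1.59 with shKap1, a log2 value of 0.76 that passed on p (0.016) and stayed below 2-fold. In TET TKO it was 0.929 and 1.19 against 1.25 and 1.02 RPKM, and the groups overlapped. In DNMT TKO the level with shKap1 remained below that of WT shEmpty in every library. The other sensors were not called, with log2 values in WT, DNMT TKO and TET TKO of 0.08, -0.37 and 0.58 for Dhx58 and -0.28, 0.10 and -0.19 for Mb21d1.

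Ddx58 was at 12.2, 5.91 and 5.07 RPKM in WT shEmpty and at 5.90, 5.48 and 5.25 with shKap1 (log2 -0.47). In DNMT TKO it was at 11.2, 4.21 and 3.95 RPKM against 7.33, 3.98 and 4.59 (log2 -0.27), and in TET TKO at 6.47 and 6.70 against 5.56 and 5.36 (log2 -0.27). The first shEmpty library of WT and that of DNMT TKO stood apart from the others, and without it the log2 value was 0.02 in WT and 0.34 in DNMT TKO.

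The adaptors Mavs and Tmem173 and the ligase Trim25 were not called in any knockdown. Mavs stood at log2 values of -0.66, -0.33 and -0.34 in WT, DNMT TKO and TET TKO, Tmem173 at 0.42, 0.70 and 0.33 and Trim25 at -0.62, -0.03 and -0.30. The feedback regulator Usp18, which removes ISG15 from proteins and dampens signalling from the interferon receptor, rose in both TKO lines. It had 0, 0 and 1 reads in DNMT TKO shEmpty and 16, 11 and 17 with shKap1, a ratio of 47.5 with an exact 95% counting interval of 8.10 to 1920 (adjusted p = 0.0001). In TET TKO it had no read with shEmpty and 3 and 8 with shKap1, which is at least 4.91-fold higher when the shEmpty group is set to a floor of 3 reads (adjusted p = 0.0057). That call was lost without shKap1 replicate 2 (adjusted p = 0.06902). In WT the reads were 0, 1 and 0 against 2, 2 and 0 and did not pass. Intervals and floors cover counting error only.

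Of the transcription factors Irf7 rose, and in DNMT TKO. Irf7 is itself induced by interferon and amplifies the response. Its reads were 1, 0 and 1 in DNMT TKO shEmpty and 11, 23 and 25 with shKap1, a ratio of 31.9 with a counting interval of 8.44 to 269 (adjusted p = 9.1e-05). In WT they were 1, 0 and 1 against 1, 5 and 0, and in TET TKO 3 and 2 against 10 and 3, neither of which passed. The difference of the effect between DNMT TKO and WT did not pass either (adjusted p = 0.3). Irf1 (log2 0.31, 0.09 and 0.17 in WT, DNMT TKO and TET TKO), Irf3 (-0.01, -0.24 and -0.01), Irf9 (-0.01, 0.15 and -0.24) and Stat2 (0.12, -0.04 and -0.07) stayed below 2-fold. Irf7, Irf3 and Irf1 overlap genes of the opposite strand and Irf9 overlaps Rnf31 on the same strand, and counting used the strand of the reads.

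The OAS family makes oligoadenylates that switch on RNase L, an activity that Oasl1 lacks. Its members moved in opposite directions. Oas1a was at 15.2, 17.5 and 17.4 RPKM in WT shEmpty and at 0.866, 1.56 and 1.60 with shKap1, a log2 change of -3.63 (SE 0.24, adjusted p = 3.3e-08). In DNMT TKO it was at 33.5, 36.7 and 36.5 RPKM against 6.35, 12.1 and 12.3 (log2 -1.79, SE 0.19, adjusted p = 7.5e-06). In TET TKO it was at 15.6 and 14.4 RPKM against 3.27 and 3.01 (log2 -2.25, SE 0.27, adjusted p = 1.8e-05). It fell in each genotype, and the groups did not overlap. Oas1a has close paralogs between which reads may be split, and its neighbour in sequence Oas1g, from the list of other interferon-stimulated genes, had log2 changes of -4.04, -1.49 and -2.58. Oas1g is given because it is a paralog and was chosen after its values were seen.

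Oasl2 moved the other way in all 3 genotypes. It had 0, 9 and 8 reads in WT shEmpty and 81, 66 and 70 in WT shKap1 (log2 3.97, SE 0.45, adjusted p = 1.2e-06). In DNMT TKO the reads were 9, 29 and 30 against 121, 119 and 151 (log2 2.65, SE 0.35, adjusted p = 1.3e-05). In TET TKO they were 3 and 8 against 33 and 14 (log2 2.47, SE 0.62, adjusted p = 0.0058), and this call was lost without shEmpty replicate 1 or without shKap1 replicate 1 (adjusted p up to 0.1188). Every shKap1 library lay above the shEmpty libraries of its genotype. Its highest level, in DNMT TKO shKap1, was 1.497 RPKM.

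Oas2 rose in the TKO lines. Its RPKM values were 0.935, 0.799 and 0.805 in DNMT TKO shEmpty and 2.71, 2.35 and 2.97 with shKap1 (log2 1.67, SE 0.17, adjusted p = 5.7e-07). In TET TKO they were 0.420 and 0.582 against 1.79 and 1.21 (log2 1.59, SE 0.22, adjusted p = 2.1e-05). In WT they were 0.699, 0.815 and 0.803 against 1.20, 1.40 and 1.20, with a log2 value of 0.71 (adjusted p = 0.0027) below 2-fold. The groups did not overlap in any genotype. Oasl1, which limits translation of Irf7, was at 0.490, 1.15 and 1.03 RPKM in WT shEmpty and at 0.241, 0.232 and 0.225 with shKap1, a log2 change of -1.96 (SE 0.31, adjusted p = 5.4e-05). In DNMT TKO Oasl1 was at 0.779, 1.16 and 0.887 against 1.36, 1.21 and 1.39 RPKM (log2 0.47, adjusted p = 0.15), and in TET TKO at 0.392 and 0.576 against 0.249 and 0.335 (log2 -0.73, adjusted p = 0.18). Oas3 fell in DNMT TKO, from 46, 77 and 90 reads to 26, 29 and 40 (log2 -1.05, SE 0.38, adjusted p = 0.044). That call was lost in 5 of 6 fits that left out a library (adjusted p up to 0.1513) and with DESeq2 and limma-voom. In WT and TET TKO Oas3 stood at log2 values of -0.15 and 0.28.

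**Figure D3:**
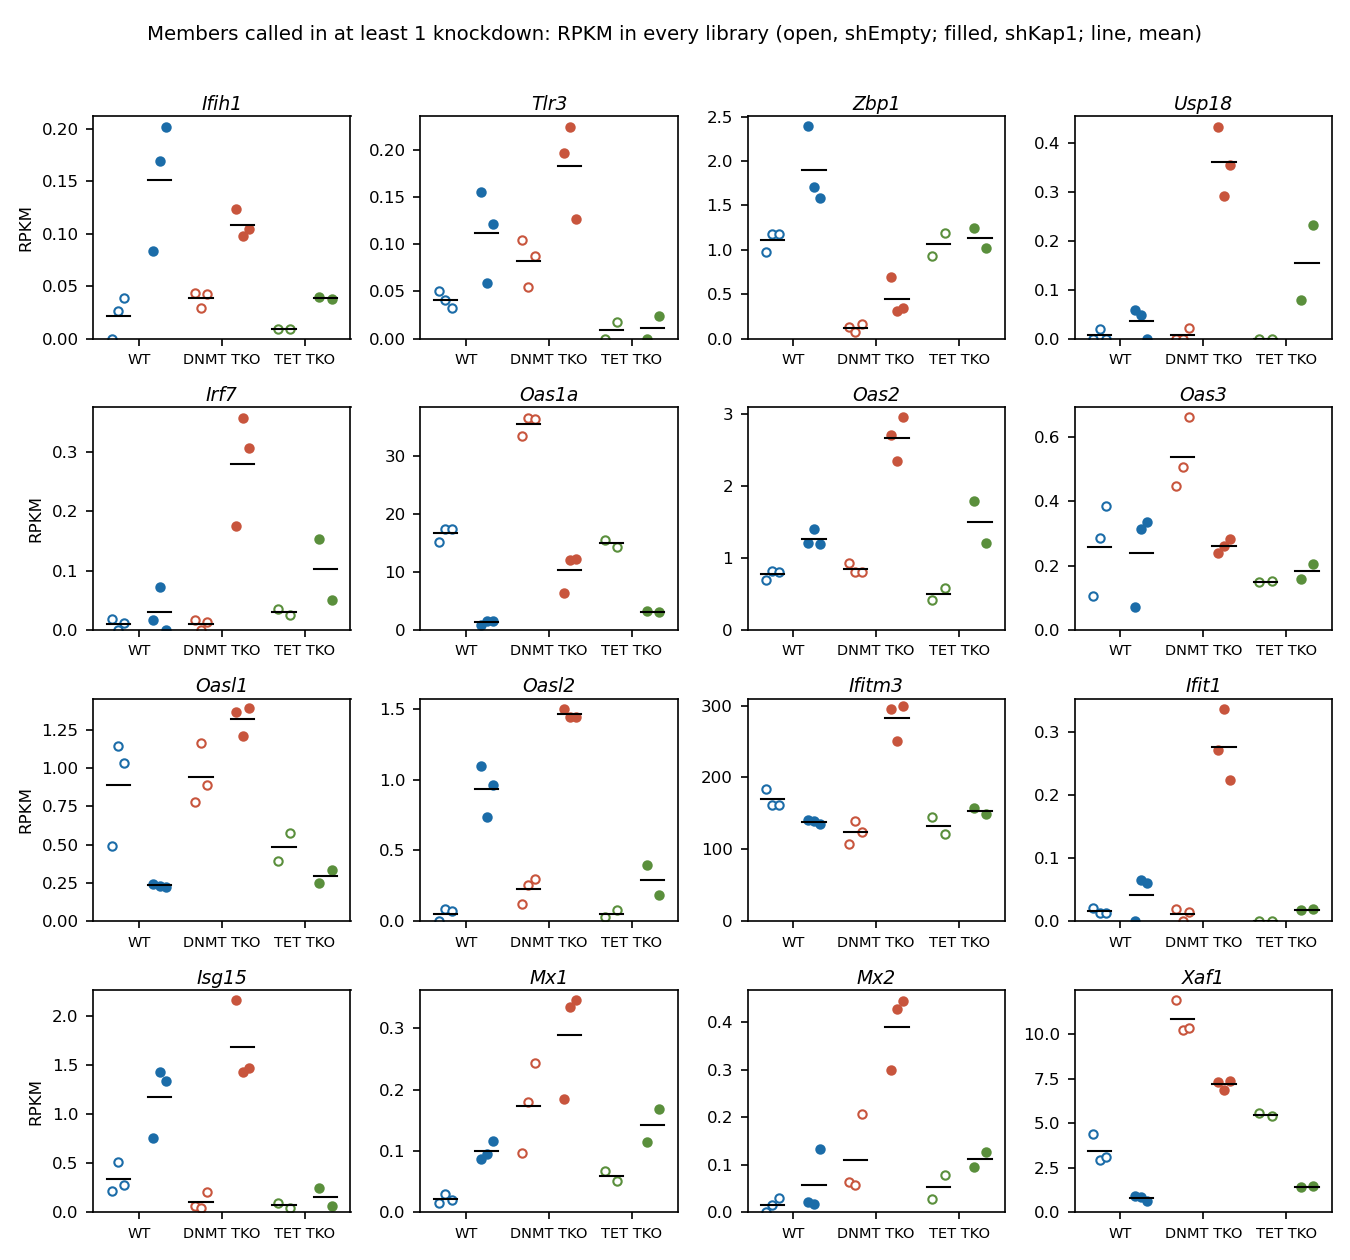
RPKM (vertical axes, each from 0) in every library for the 16 genes called in at least 1 knockdown, with open points for shEmpty, filled points for shKap1 and a line at the mean of each group. Oas1a and Xaf1 start highest in DNMT TKO and are lower with shKap1, while Ifit1, Irf7, Usp18 and Isg15 reach their highest values in DNMT TKO shKap1.

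Among the other effectors, Isg15, the ubiquitin-like modifier of the response, rose in WT and in DNMT TKO. It had 3, 11 and 6 reads in WT shEmpty and 11, 25 and 19 with shKap1 (log2 1.73, SE 0.42, adjusted p = 0.0025). In DNMT TKO the reads were 1, 1 and 4 against 34, 23 and 30 (log2 3.89, SE 0.49, adjusted p = 8.5e-06). In TET TKO they were 2 and 1 against 4 and 1, and the groups overlapped. The levels with shKap1 were 0.763 to 1.43 RPKM in WT and 1.43 to 2.16 in DNMT TKO, so that the highest of the former met the lowest of the latter.

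Ifit1, which binds viral RNA with an unmethylated cap, had 1, 0 and 1 reads in DNMT TKO shEmpty and 15, 19 and 16 with shKap1, a ratio of 27.01 with a counting interval of 7.10 to 229 (adjusted p = 5.5e-05). In WT it had 1, 1 and 1 against 0, 4 and 3 reads, and in TET TKO none against 1 and 1, neither of which passed. The rise was thus called in DNMT TKO and not elsewhere, and the difference of the effect between DNMT TKO and WT did not pass (adjusted p = 0.14). Ifit2 stood at log2 values of 0.24, 0.54 and 0.53 and Ifit3 had at most 1 read in a library.

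The Mx genes encode GTPases that trap viral nucleoproteins. Mx1 had 1, 3 and 2 reads in WT shEmpty and 6, 8 and 8 with shKap1 (log2 2.10, SE 0.56, adjusted p = 0.0053), and its reads in DNMT TKO were 7, 19 and 23 against 14, 26 and 34 and in TET TKO 7 and 5 against 9 and 12, neither of which passed. Mx2 rose in DNMT TKO, from 3, 4 and 13 reads to 15, 22 and 29 (log2 1.81, SE 0.49, adjusted p = 0.0081), a call lost without shEmpty replicate 2 (adjusted p = 0.05159). Its reads in WT were 0, 1 and 2 against 1, 1 and 6 and in TET TKO 2 and 5 against 5 and 6. Both Mx genes stayed below 0.445 RPKM in every library.

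Xaf1, a gene linked to apoptosis that interferon induces, fell in WT and TET TKO. It was at 4.38, 2.96 and 3.09 RPKM in WT shEmpty and at 0.906, 0.877 and 0.648 with shKap1 (log2 -2.08, SE 0.15, adjusted p = 3.9e-09). In TET TKO it was at 5.57 and 5.43 RPKM against 1.44 and 1.47 (log2 -1.92, SE 0.17, adjusted p = 1.1e-07). In DNMT TKO it was at 11.9, 10.2 and 10.4 RPKM against 7.32, 6.86 and 7.39, a log2 value of -0.59 (SE 0.12, adjusted p = 0.00078) below 2-fold. The groups did not overlap in any genotype. The remaining effectors were not called, among them the RNA-activated kinase Eif2ak2 (PKR), which stood at log2 values of 0.52, 0.74 and 0.31 in WT, DNMT TKO and TET TKO with adjusted p values of 0.00011, 4.8e-06 and 0.042. Rsad2 (viperin) stood at 0.30, 0.87 and 1.17 on 3 to 17 reads per library, Adar at -0.12, -0.11 and 0.10, Samhd1, which depletes nucleotides, at 0.11, -0.13 and 0.11, and Parp14 at 0.96, -0.17 and 0.44.

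The IFITM proteins hinder the entry of enveloped viruses, and Ifitm3 was the abundant member that rose. It was at 108, 139 and 125 RPKM in DNMT TKO shEmpty and at 295, 251 and 300 with shKap1 (log2 1.19, SE 0.09, adjusted p = 4.1e-08). In WT it was at 184, 162 and 162 RPKM against 141, 139 and 136 (log2 -0.29, adjusted p = 0.016), and in TET TKO at 144 and 121 against 158 and 148 (log2 0.21, adjusted p = 0.18). All shKap1 libraries of DNMT TKO lay above those of every other group. Its neighbours were not called, with log2 values of -0.69, -0.30 and -0.87 for Ifitm1 and -0.66, 0.02 and -0.25 for Ifitm2 in WT, DNMT TKO and TET TKO, and Bst2 stood at -0.26, -0.15 and 0.23.

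The difference of the knockdown effect between genotypes was tested as an interaction. Between DNMT TKO and WT it was called for 6 of the 35 genes (7.14% of all genes were called). The effect was more positive in DNMT TKO for 5 (4.66% of all genes), namely Oasl1 (2.43, adjusted p = 0.00032), Isg15 (2.16, adjusted p = 0.042), Oas1a (1.84, adjusted p = 0.001), Xaf1 (1.49, adjusted p = 2.6e-05) and Ifitm3 (1.48, adjusted p = 6.6e-07), in log2 units. It was more negative for 1 (2.48% of all genes), Parp14 (-1.13, adjusted p = 0.00094), a poly-ADP-ribose polymerase family member. For Oas1a and Xaf1 the positive value stands for a smaller fall. The call for Isg15 was lost in 9 of 12 fits that left out a library (adjusted p up to 0.175), with DESeq2 and with the groups compared alone. Between TET TKO and WT it was called for Oas1a (1.37, adjusted p = 0.033), 1 gene of 35 (4.21% of all genes, 2.08% in this direction and 2.13% in the other), and was lost in 8 of 10 fits that left out a library (adjusted p up to 0.1362). Trim28 was reduced less in DNMT TKO than in WT, as given above, and its part in these differences was not tested.

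In shEmpty cells the DNMT TKO line differed from WT at 12 of the 35 genes. It was higher at 8 (22.9%, against 8.23% of all genes) and lower at 4 (11.4%, against 8.05%). Mx1 (log2 2.93, SE 0.50), Mx2 (2.59, SE 0.86), Parp14 (2.03, SE 0.15), Oasl2 (1.97, SE 0.52), Xaf1 (1.65, SE 0.12), Oas1a (1.09, SE 0.19), Ifitm1 (1.08, SE 0.28) and Oas3 (1.00, SE 0.38) were higher, with adjusted p values from 7.4e-09 (Xaf1) to 0.041 (Oas3). Zbp1 (-3.22, SE 0.33), Isg15 (-1.66, SE 0.63), Bst2 (-1.35, SE 0.12) and Tmem173 (-1.07, SE 0.15) were lower, with adjusted p values from 8.4e-08 (Bst2) to 0.039 (Isg15). Parp14 was at 0.331 to 0.364 RPKM in WT and at 1.13 to 1.62 in DNMT TKO, and Bst2 at 83.4 to 106 against 35.3 to 40.3. The calls for Isg15, Oas3, Mx2, Ifitm1 and Tmem173 were lost in 3, 4, 3, 2 and 1 of 6 fits that left out a library, and that for Isg15 also with DESeq2 and with the groups compared alone (adjusted p up to 0.07556). Over genes with at least 500 reads, the median log2 difference between these lines was 0.30 on chromosome 11, which holds Xaf1, and -0.13 on chromosome 8, which holds Bst2, and the part of these shifts was not tested. In TET TKO shEmpty 0 genes were higher than in WT (5.66% of all genes were) and 1 was lower (4.80% of all genes), namely Isg15 (log2 -2.18, SE 0.75, adjusted p = 0.039), on 2 and 1 reads against 3, 11 and 6. That call was lost with the replicate number as a block, with DESeq2 and in 3 of 5 fits that left out a library (adjusted p up to 0.2044). DESeq2 and limma-voom likewise called 0 genes higher, and at an unadjusted p below 0.05 in edgeR 3 were higher (8.57%, against 18.8% of all genes) and 11 lower (31.4%, against 18.3%).

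The interferon genes themselves were nearly silent. Of 11 looked at, 8 (Ifnb1, Ifna1, Ifna2, Ifna4, Ifna5, Ifne, Ifnl2 and Ifnl3) had no read in any of the 16 libraries. Ifnk had 4 reads, Ifnz 5 and Ifng 20, all of them in shKap1 libraries and none in the 8 shEmpty libraries. Ifng, the type II interferon, had 1, 1 and 3 reads in WT shKap1, 3, 7 and 0 in DNMT TKO and 1 and 4 in TET TKO. In DNMT TKO this is at least 3.60-fold higher when set against the same floor, and it was called there (adjusted p = 0.046). The gene passed the read filter through the shKap1 libraries, its call was lost in 4 of 5 fits that left out a library (adjusted p up to 0.1027), and without shKap1 replicate 2 it had too few reads to be tested. Among the receptors and kinases of this list, which had 11 of 21 genes tested, 3 rose in WT (27.3%, against 10.8% of all genes), namely Ifngr2 (log2 2.24, SE 0.18, adjusted p = 2.2e-08), Ifngr1 (2.20, SE 0.20, adjusted p = 8.1e-08) and Jak2 (1.24, SE 0.12, adjusted p = 1.5e-07). Ifngr1 and Ifngr2 form the receptor for interferon gamma and JAK2 is its kinase. In DNMT TKO 2 were called up (18.2%, against 10.1%), Ifng and Il10rb (log2 1.13), and in TET TKO 1 (9.09%, against 8.05%), Ifngr2 (log2 1.76). Il10rb was named after its values were seen. Without Ifng, 1 of the 10 remaining genes rose in DNMT TKO (10%, against 8.23% of all genes with at least 16 reads in the shEmpty libraries).

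Of 51 other interferon-stimulated genes listed, 41 were tested. This and the other lists were chosen with earlier results of these data known, so their shares are not an independent test. In WT 18 rose (43.9%, against 10.8% of all genes), in DNMT TKO 20 (48.8%, against 10.1%) and in TET TKO 17 (41.5%, against 8.05%), while 1, 2 and 3 fell and 22, 19 and 21 were not called, with median log2 changes of 0.97, 1.12 and 0.66 against -0.01, 0.02 and -0.01 for all genes. Of the 41, Epsti1, Gbp3, Gbp5, Gbp6, Iigp1 and Slfn2 had fewer than 16 reads in the 8 shEmpty libraries together, and all but Gbp6 passed the filter through the shKap1 libraries and were called up in at least 1 knockdown. Without these 6, 14 of 35 rose in WT (40%, against 9.25% of all genes with at least 16 such reads), 17 in DNMT TKO (48.6%, against 8.23%) and 14 in TET TKO (40%, against 6.6%). Epsti1, Gbp3 and Gbp6 were named after their values were seen. The genes that fell were Oas1g in all 3, Ddx60 in DNMT TKO (log2 -1.27) and TET TKO (-3.27) and Sp100 in TET TKO (-2.18), named after their values were seen. The 14 that rose in all 3 (34.1%, against 3.95% of all genes) included the guanylate-binding proteins Gbp2, Gbp3, Gbp4, Gbp5 and Gbp7 and the immunity-related GTPases Igtp, Irgm1 and Irgm2, which act on the vacuoles of intracellular pathogens, and of these Gbp4, Gbp7, Igtp, Irgm1 and Irgm2 were named after their values were seen. The Gbp5 call in TET TKO rested on 2 reads against 10 and was lost in 4 of 4 fits that left out a library (adjusted p from 0.0712 to 0.09896) and with DESeq2 (0.1132). Gbp2 had 1, 19 and 21 reads in WT shEmpty and 255, 284 and 211 with shKap1 (log2 4.503, SE 0.43, adjusted p = 5.1e-07), 0, 5 and 3 against 100, 41 and 58 in DNMT TKO (log2 4.72, SE 0.62) and 3 and 1 against 60 and 45 in TET TKO (log2 5.03, SE 0.81). Slfn2 had 4, 3 and 1 reads in WT shEmpty and 54, 87 and 74 with shKap1 (log2 4.95, SE 0.42), rose in TET TKO (log2 5.66, SE 0.48) and had no more than 1 read in any DNMT TKO library. Gbp5 and Iigp1 had no read in WT shEmpty and 15 and 16 in WT shKap1, at least 6.10-fold and 6.51-fold higher, and over all libraries their reads numbered 3 and 0 with shEmpty against 46 and 18 with shKap1. Iigp1 was not called by DESeq2 (adjusted p = 0.1413).

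Of 13 genes of antigen presentation, 12 were tested, of which 5 rose in WT (41.7%), 6 in DNMT TKO (50%) and 6 in TET TKO (50%), against 10.8%, 10.1% and 8.05% of all genes. These genes, too, were listed with earlier results of these data known. H2-T23, with 7 reads in the shEmpty libraries together and 45 in the shKap1 libraries, passed the filter through the latter and rose in TET TKO, where 5 of 11 rose without it (45.5%, against 6.6%), and it was named after its values were seen. The list holds genes of MHC class I and Ciita, the transactivator of class II genes, which was the 1 gene that fell, in DNMT TKO (log2 -1.15, named after its values were seen). The immunoproteasome subunit Psmb8 had 2, 4 and 2 reads in WT shEmpty and 73, 70 and 57 with shKap1 (log2 4.87, SE 0.54), with log2 changes of 2.81 in DNMT TKO and 3.23 in TET TKO. The peptide transporter Tap2 rose by 2.57, 1.91 and 1.97 and the class I gene H2-Q4 by 2.25, 3.21 and 1.93 in WT, DNMT TKO and TET TKO. H2-K1 rose in WT (1.56) and DNMT TKO (1.03) and stood at 0.59 in TET TKO (adjusted p = 0.29). Class I genes are near-identical copies of each other, so their separate counts are uncertain. Psmb8 in TET TKO and H2-K1 in DNMT TKO lost their calls in 2 of 4 and 3 of 6 fits that left out a library.

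Of 22 genes that act between sensors and interferon, 20 were tested, and in each genotype 1 fell (5%, against 6.54% of all genes in WT, 2.41% in DNMT TKO and 4.46% in TET TKO). In WT the kinase Ikbke rose, 1 of 20 (5%, against 10.8% of all genes; log2 1.04, SE 0.22, adjusted p = 0.00074) and the mitochondrial regulator Nlrx1 fell by 1.26 (SE 0.22, adjusted p = 0.00012), and in each of the TKO lines 1 gene fell, Ddx60, which is also on the list of other interferon-stimulated genes. Ikbke lost its call in 3 of 6 fits that left out a library, in which its log2 change went down to 0.84. Isg15, Usp18 and Adar are brakes on the response too, but they are counted among the 36 genes and not in the list of brakes. Of these, Isg15 rose in WT and DNMT TKO, Usp18 rose in both TKO lines and Adar was not called. Of 14 other brakes tested, Irf2, which competes with IRF1, rose in WT (7.14%, against 10.8% of all genes; log2 2.14, SE 0.37, adjusted p = 0.00011), and Nlrc3 fell in WT (-1.46, adjusted p = 0.033) and in TET TKO (-2.60, adjusted p = 0.0094), each 7.14% of the list, against 6.54% and 4.46% of all genes. Nlrc3 lost its calls in 4 of 6 and 1 of 4 fits that left out a library, and that in WT also with DESeq2 (adjusted p = 0.05095).

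**Figure D4:**
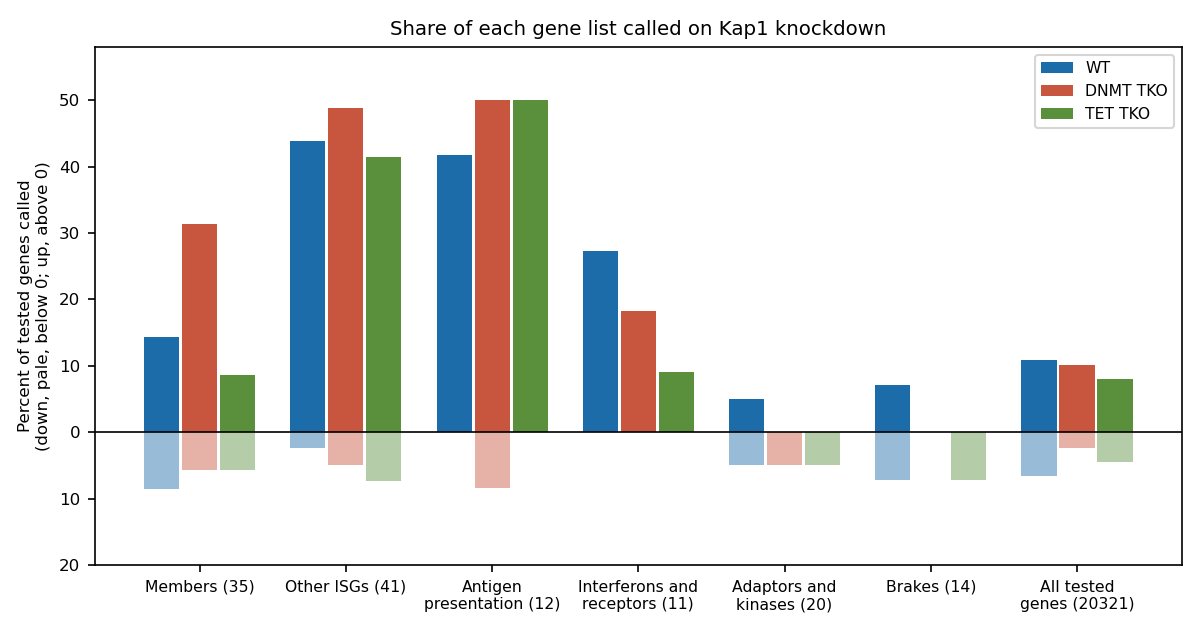
Percent of the tested genes of each list called up (full colour, above 0) and down (pale, below 0) on Kap1 knockdown in WT, DNMT TKO and TET TKO, beside all 20321 tested genes. Other interferon-stimulated genes (41.5 to 48.8% called up) and antigen presentation (41.7 to 50% called up) stand highest, and the shares called up among adaptors (0 to 5%) and the brakes of the list (0 to 7.14%) lie below those of all genes. The brakes Isg15, Usp18 and Adar are counted among the 36 genes and not in that list, and Isg15 and Usp18 rose in 2 genotypes each. The lists were chosen with earlier results of these data known. The shares include genes that passed the read filter through the shKap1 libraries.

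Retroelements rose in the same libraries. Their levels are given as CPM, which scales reads to the total assigned to genes, adjusted by the TMM factor. IAPEz-int elements, internal parts of intracisternal A particles, summed to 104 ± 9.18 CPM (SD, n = 3) in WT shEmpty and 5276 ± 601 in WT shKap1. They summed to 97.3 ± 33.4 and 7856 ± 1535 CPM (SD, n = 3) in DNMT TKO and to 81.6 ± 1.44 and 4231 ± 20.8 (SD, n = 2) in TET TKO. Mean sums of MERVL-int elements went from 225 to 2356 CPM in WT, from 253 to 1745 in DNMT TKO and from 193 to 6667 in TET TKO, and L1Md_A elements from 272 to 677, from 436 to 1626 and from 147 to 998. With shKap1, TET TKO, with 3 of the 35 tested genes called up (8.57%, against 8.05% of all genes), thus had the highest MERVL-int sum. DNMT TKO, with 11 (31.4%, against 10.1%), had the highest IAPEz-int and L1Md_A sums. WT, with 5 (14.3%, against 10.8%), had a higher IAPEz-int sum than TET TKO and lower MERVL-int and L1Md_A sums. TET TKO had 2 libraries per group. The rises in DNMT TKO include Ifit1, Irf7 and Usp18 and those in TET TKO include Usp18, which passed the read filter through the shKap1 libraries. Over genes with at least 16 reads in the shEmpty libraries, 5 of 32 rose in WT (15.6%, against 9.25% of all genes). On that basis 8 rose in DNMT TKO (25%, against 8.23%) and 2 in TET TKO (6.25%, against 6.6%). A relation between elements and genes was not tested.

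An integrant that rose was looked for in the gene body and 10 kb on either side. It was found for 1 of 35 genes in WT (2.86%, against 17.1% of all genes, where 12.1% of tested integrants rose), 4 in DNMT TKO (11.4%, against 18.4%, where 15.0% rose) and 2 in TET TKO (5.71%, against 17.1%, where 14.7% rose). Within 50 kb the counts were 8 in WT (22.9%, against 35.5%), 14 in DNMT TKO (40%, against 38.5%) and 12 in TET TKO (34.3%, against 36.3%). Within 10 kb, 26 of the 35 genes had an integrant that was tested. The gene in WT was Oasl2, those in DNMT TKO were Oasl2, Oas2, Oas3 and Trim25, and those in TET TKO were Oas2 and Ifitm3. Oas3 was counted through the B3 integrant that lies inside Oas2. A copy of MMVL30-int with an RLTR6_Mm LTR at chr5:115341354-115345133 (mm9) lay 1810 bp upstream of the start of Oasl2 on the same strand. That copy had 1, 2 and 4 reads in WT shEmpty and 19, 17 and 12 with shKap1 (log2 3.00, adjusted p = 3.8e-07). In DNMT TKO it had 6, 4 and 1 against 20, 26 and 20 (log2 2.65, adjusted p = 3.6e-07), and in TET TKO 3 and 0 against 0 and 6 (adjusted p = 0.44). The copy thus rose together with Oasl2 in WT and DNMT TKO, and did not pass in TET TKO, where Oasl2 rose. Integrants within Oasl2 (B1_Mus1, MER5A and Lx8) and Oas2 (MER21C and B3) lie on the strand of the gene, where reads of the gene and of the element cannot be told apart. An MT2_Mm element 8818 bp upstream of Ifitm3, on the opposite strand, was called up in TET TKO (adjusted p = 5.3e-05), where Ifitm3 was not called. It had 0 and 0 reads there with shEmpty and 7 and 12 with shKap1, so the size of the rise is not known. Integrants were filtered on reads over all libraries, and some, this element among them, passed through the shKap1 libraries.

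Chromatin marks were available for WT cells. H3K4me3, a mark of active starts, lay within 1 kb of the start of 22 of 35 genes (62.9%, against 69.3% of all genes), and H3K27me3, a mark of Polycomb repression, at Irf7, Mb21d1, Oasl2 and Usp18 (11.4%, against 15.9%). The 22 genes with H3K4me3 had a median of 9.61 RPKM in WT shEmpty, and 3 of them rose and 2 fell in at least 1 knockdown (13.6% and 9.09%, against 12.5% and 8.36% of all genes with the mark). The 13 without it had a median of 0.111 RPKM, and 9 rose and 2 fell (69.2% and 15.4%, against 26.5% and 11.2% of all genes without it). These rises include Usp18 (with the mark) and Ifit1 and Irf7 (without it), which passed the read filter through the shKap1 libraries. KAP1 regions lay within 1 kb of the start of 1 gene, Oas1a (2.86%, against 4.4%), and within 5 kb of 3, Oas1a, Stat2 and Tlr3 (8.57%, against 9.03%). The region at Oas1a, chr5:121356945-121357532 (mm9, 588 bp), ended 4 bp inside the gene from its start, so that the capital letters of the window shown above lie outside it. Regions of H3K9me3, the repressive mark that KAP1 recruits, were found within 5 kb of 0 of the 35 starts. Over all genes, 3.52% of starts had a KAP1-dependent region and 0.29% a KAP1-independent one, and a difference from these small shares was not tested. Oas1a, with a KAP1 region within 1 kb of its start, was also the gene of the 35 that fell in every genotype on loss of KAP1, and a part of that region in the fall was not tested.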

How the data were processed

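RNA-seq used stranded, single-end libraries. According to the methods, the authors aligned reads to mm9 with HISAT2, kept unique alignments and counted them per gene with featureCounts (reverse strand, exons, mapping quality of at least 10). The file headers name a version that differs from the 1.5.1 of the submitters' notes and a path typical of TopHat, so the aligner is uncertain. The deposited values are raw read counts per gene, and read counts per repeat integrant made by the authors with bedtools. Region files also hold deposited counts of 5hmC reads, of which only the positions were used. KAP1 and H3K9me3 regions are described in the methods as published earlier. The second hMeDIP replicate was not used here.

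Features with at least 16 reads in all were tested in edgeR 4.0.16 (R 4.3.3) with TMM scaling, a model of 6 groups and robust quasi-likelihood F tests, with Benjamini-Hochberg adjustment over all tested features, separately for genes and integrants. The authors' own limma-voom test was an alternative (limma 3.58.1), as was DESeq2 1.42.0. Genes with an adjusted p below 0.05 and at least a 2-fold change were called. Counts over genes with at least 16 reads in the shEmpty libraries come from the same fit and were added after seeing the data. The script was tested on simulated data. The genes and lists were chosen with earlier results of these data known. Genes called in a knockdown are given per library, and from each further list at most the 4 with the largest change in WT are named, with the interferon genes, and others are marked where they appear. A gene that the rule also names is not reported here. Libraries of a replicate number deviated together in WT (r = 0.27, 0.12 and 0.12 between hairpins) and between shEmpty of WT and DNMT TKO (0.32, 0.14 and 0.15), so the numbers pair these. Between the hairpins of DNMT TKO r was 0.33, 0.17 and 0.08, so that 1 pair missed the threshold of 0.1, and in TET TKO it was -0.0037 for both. Replicates are independent experiments, and p-values cover the spread between them within a line.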

Additional observations from a re-analysis of the deposited data

Results flagged for a closer look

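Results are listed here when the knockdown effect differed between genotypes by the interaction test of edgeR, in log2 units with Benjamini-Hochberg adjusted p. Between DNMT TKO and WT the effect was more positive in DNMT TKO for Oasl1 (2.43, adjusted p = 0.00032), Isg15 (2.16, adjusted p = 0.042), Oas1a (1.84, adjusted p = 0.001), Xaf1 (1.49, adjusted p = 2.6e-05), Ifitm3 (1.48, adjusted p = 6.6e-07) and the targeted gene Trim28 (1.28, adjusted p = 0.0008), and more negative for Parp14 (-1.13, adjusted p = 0.00094). Between TET TKO and WT it was more positive in TET TKO for Oas1a (1.37, adjusted p = 0.033). The Isg15 call and the TET TKO call of Oas1a were lost in 9 of 12 and 8 of 10 fits that left out a library.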

How the results depend on the processing

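Without the 2-fold threshold, knockdown called 11 genes up (31.4%, against 23% of all genes) and 7 down (20%, against 22.7%) in WT. It called 13 up (37.1%, against 19.7%) and 5 down (14.3%, against 15.6%) in DNMT TKO and 4 up (11.4%, against 15.3%) and 4 down (11.4%, against 15.1%) in TET TKO. The shEmpty comparison with WT then gave 10 higher (28.6%, against 20.5%) and 7 lower genes (20%, against 23.1%) in DNMT TKO. In TET TKO it gave 1 higher (2.86%, against 14.1%) and 9 lower (25.7%, against 13.1%). The interactions called 10 in DNMT TKO (28.6%, against 18.4%) and 3 in TET TKO (8.57%, against 9.69%). The falls in DNMT TKO numbered 1 with no read filter, with DESeq2 and with limma-voom, which lack Oas3. The lower genes of TET TKO shEmpty numbered 0 with DESeq2, with the groups compared alone and with the replicate block, and the TET TKO interaction called 0 with no read filter. The replicate block changed no other count of these genes. The cause of these shifts was not tested, apart from the threshold, which acts by its construction.

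Leaving out 1 library at a time, the rises numbered 4 to 6 in WT, 8 to 11 in DNMT TKO and 2 to 3 in TET TKO, and the falls 3 to 4, 1 to 2 and 2 to 2. In shEmpty cells 5 to 8 genes were higher and 2 to 4 lower in DNMT TKO, and 0 to 0 higher and 0 to 2 lower in TET TKO. The interactions called 5 to 7 and 0 to 2. No called value of the 35 genes changed direction, whereas 18 of 79 that were not called in a knockdown did, among them Ddx58 in WT and DNMT TKO. Many of the rises rest on few reads per library, which limits their precision, and TET TKO had 2 libraries per group.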
